A study of Mus musculus with 6 samples.

Results

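The genes described are 52 genes of DNA repair and damage signalling, chosen by name for their roles, among 53346 gene symbols measured in mouse glioma cells. They comprise 12 genes of homologous recombination, 11 of the Fanconi anaemia pathway, 3 of mismatch repair, 12 of excision and single-strand break repair, 5 of end joining and 9 of damage signalling. The cells are labelled both as astrocytes and as glioma cells, and all 3 groups share 1 genotype, Ink4a/Arf-/- with PDGFRa and PDGF-A. The groups differ in dose and received 0, 5 or 10 µM SHP099, which inhibits SHP-2 by an allosteric route. SHP-2 is the phosphatase that the gene Ptpn11 encodes, and it passes growth factor signals on to RAS and ERK. The labels used here give neither the length of treatment nor the number of cultures, and not whether the line is 1 clone or which promoters drive the introduced genes.

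Cells mend DNA by routes that suit the kind of damage. Homologous recombination copies the sister chromatid and is used in S and G2 phase, and the Fanconi anaemia pathway unhooks crosslinks at replication forks and hands them to it. Mismatch repair corrects replication errors, excision repair removes damaged bases or short damaged stretches, and end joining reseals broken ends throughout the cell cycle. ATM and ATR are the kinases that signal breaks and stalled forks, through CHK2 and CHK1. Transcription of many replication-linked repair genes is known to follow E2F activity and so to be high in dividing cells.

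Polyadenylated RNA was measured as FPKM, a level that corrects fragment numbers for the length of the transcript and the depth of the file. Each dose had 1 library, read in lanes 6 and 7, as the sample titles give it, so n = 1 per dose and there is no test between doses. Read in this way, lanes carry sequencing error alone, and how far separate cultures would vary was not measured. The words higher and lower, and called, are used of a gene whose mean log2(FPKM + 1) shifted by 1.5-fold or more, with all 4 pairings of lanes across the doses pointing the same way. Ranges after a log2 fold run over those 4 lane pairs. Folds on this scale understate changes in FPKM at all levels, most for genes near or below 1 FPKM. Some genes well above 1 FPKM changed by more than 1.5-fold in plain FPKM and were not called. They include Ddb2 (ratio of mean FPKM 1.57 at 10 over 0 µM), and Lig3 (0.651) and Chek2 (0.656) at 5 over 0 µM.

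Mapped fragments, worked out from the spacing of low FPKM values, were fewer at each higher dose. They were 46880000 and 47120000 with 0 µM, 37900000 and 38580000 with 5 µM, and 30820000 in each lane with 10 µM. A 2 kb transcript at 1 FPKM thus has a counting error of 10.3% with 0 µM to 12.7% with 10 µM. Depth goes with dose here, and its part in the results was not tested. Between the lanes of 1 library the 52 genes differed by a median of 0.05 with 0 µM, 0.08 with 5 µM and 0.09 with 10 µM on the log2 scale. Ptpn11, the target, was listed at 60.3 and 57.6 FPKM with 0 µM, 56.8 and 60.0 FPKM with 5 µM, and 58.5 and 57.0 FPKM with 10 µM. The label astrocyte was met in part: of 7 astrocyte markers, Slc1a3 and Sox9 reached 1 FPKM, while Gfap was at 0.0527 FPKM or less and Aqp4 at 0 in all 6 files. The 7 summed to between 19.2 and 21.1 FPKM in every file. Markers of microglia (4), endothelium (3) and the oligodendrocyte lineage (4) summed to at most 0.199 FPKM in any file, with Olig1 and Olig2 at 0, and of 4 neuronal markers Tubb3 alone reached 1 FPKM. Fibroblast and meningeal markers were abundant in sum, mostly through Col1a1 and Col1a2. Of the 4, Col1a1, Col1a2 and Dcn were compared, and Lum was at 0.572 FPKM or less in every file. The 4 summed to 1914 and 1915 FPKM with 0 µM, 3831 and 3842 FPKM with 5 µM, and 3652 and 3626 FPKM with 10 µM. The sums were thus larger at both doses than at 0 µM, and largest at 5 µM. The part of these cells or genes in the results was not tested.

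All 52 genes were measured: each had a mean of at least 1 FPKM at 0 µM and at 5 µM, so none entered the comparison through the untreated library alone. Their RNA was lower with the inhibitor in most cases. The 52 genes summed to 812 and 822 FPKM with 0 µM, 473 and 475 FPKM with 5 µM, and 449 and 439 FPKM with 10 µM. At 10 against 0 µM, 31 of the 52 were lower and 1 was higher. The background is 12567 genes whose mean reached 1 FPKM with any of the doses, of which 19.1% were lower and 15.7% higher. The median log2 fold was −0.72 for the 52 genes, with medians of −0.81 to −0.69 over the lane pairs, and −0.03 for all genes compared. The deposited FPKM sum to different totals, and files brought to equal sums (without Snora62, the largest value) shifted the median of all genes to 0.17. On that scale 12.5% of all genes were lower and 23.4% higher, and of the 52 genes 26 were lower and 3 higher, with a median of −0.54.

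**Figure D1:**
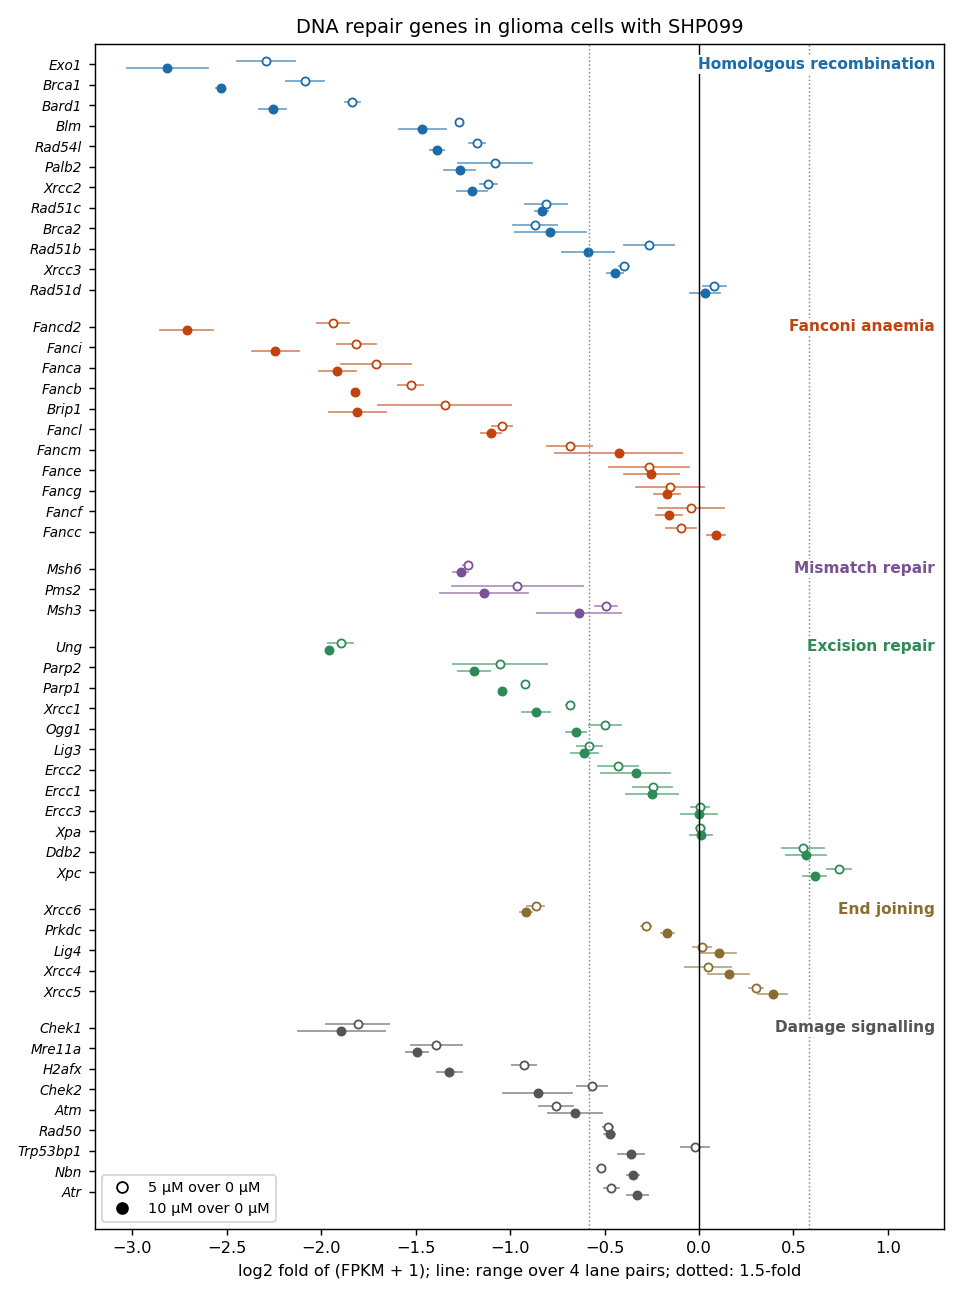
Log2 fold of (FPKM + 1) for each of the 52 genes, 5 over 0 µM (open points) and 10 over 0 µM (filled points), by role, with the range over the 4 lane pairs as a line and 1.5-fold dotted. Homologous recombination and Fanconi genes reach the lowest folds, down to −2.82 for Exo1, and most end joining genes lie between the dotted lines.

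The counts by role are set beside 19.1% lower and a median of −0.03 among all compared genes. Of homologous recombination genes, 10 of 12 were lower with 10 than with 0 µM, and the median of their log2 folds was −1.23. For the Fanconi genes the count was 6 of 11 and the median −1.10, and for mismatch repair 3 of 3 and −1.14. Damage signalling genes had 5 of 9 lower and a median of −0.66, and excision repair genes 6 of 12 lower, 1 higher and a median of −0.47. End joining had 1 of 5 lower, a share close to that of all genes, and a median of 0.10. These counts describe 1 library per dose, and the differences between roles were not tested.

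The dose of 5 µM gave nearly the same picture. At 5 against 0 µM, 27 of the 52 genes were lower and 1 higher, where 16.8% of all compared genes were lower and 14.1% higher (10.95% and 20.4% with equal sums, when 25 and 2 of the 52 genes were called). Of the 31 genes lower at 10 µM, 26 were also lower at 5 µM, and the 5 others were Rad51b, Msh3, Lig3, Ogg1 and Chek2. Both comparisons share the 0 µM library. For the 31 genes, the log2 fold at 5 µM was a median of 85.3% of that at 10 µM, between 44.6% for Rad51b and 115% for Atm. Between 10 and 5 µM the 1 gene called was Fancd2, as lower, where 1.35% of all compared genes were lower and 0.414% higher. The median log2 fold of the 52 genes there was −0.07, against −0.01 for all genes. With a pseudocount of 0.1 in place of 1 FPKM, 6 of the 52 were called lower there, and 2.46% of all genes. Without either file of 5 µM, or without the lane 6 file of 10 µM, 2 of the 52 were called lower.

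The proliferation marker Mki67 moved with these genes: it was at 95.1 and 94.0 FPKM with 0 µM, 13.0 and 13.1 FPKM with 5 µM, and 5.55 and 5.78 FPKM with 10 µM. In bulk RNA, fewer cells of a kind, such as cells in S phase, and less RNA per cell cannot be told apart. The part of cell division in the results below was not tested.

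**Figure D2:**
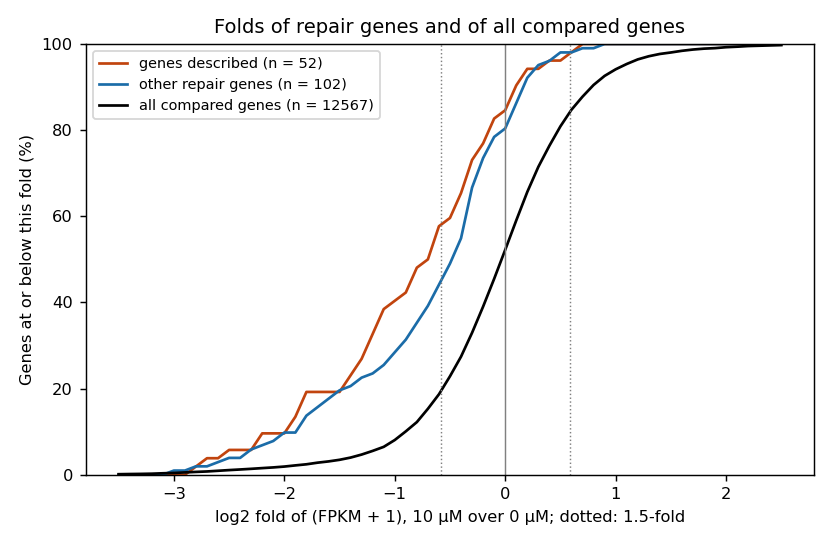
Cumulative share of genes (y axis, %) at or below each log2 fold of 10 over 0 µM (x axis), for the 52 genes, for 102 other repair genes and for all 12567 compared genes. The curves of both repair lists lie to the left of all genes, with medians of −0.72 for the 52 genes, −0.48 for the other repair genes and −0.03 for all.

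Promoter letters are shown for the 3 genes with the lowest folds among those in the RefSeq promoter table, Brca1, Bard1 and Fanci, and for Xrcc5, with the highest fold among them. Xrcc6 was added after its values were seen, as the partner of Xrcc5. The windows run from 250 bases before to 50 after the transcription start in build GRCm38.p6, a later build than the one named for these files. They read 5′ to 3′ on the gene's strand, and capitals mark letters of E2F, CHR (cell cycle genes homology region) or CCAAT motifs on either strand. The Brca1 window lies at chr11:101551906-101552205 on the minus strand, Bard1 at chr1:71102923-71103222 on the minus strand, Fanci at chr7:79392088-79392387 on the plus strand, Xrcc6 at chr15:82016119-82016418 on the plus strand and Xrcc5 at chr1:72307171-72307470 on the plus strand.
Brca1: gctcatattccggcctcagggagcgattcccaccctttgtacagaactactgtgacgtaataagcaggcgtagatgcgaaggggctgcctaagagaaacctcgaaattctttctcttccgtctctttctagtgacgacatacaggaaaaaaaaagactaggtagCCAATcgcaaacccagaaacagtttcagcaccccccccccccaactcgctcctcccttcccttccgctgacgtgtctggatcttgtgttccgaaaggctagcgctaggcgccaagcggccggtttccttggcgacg
Bard1: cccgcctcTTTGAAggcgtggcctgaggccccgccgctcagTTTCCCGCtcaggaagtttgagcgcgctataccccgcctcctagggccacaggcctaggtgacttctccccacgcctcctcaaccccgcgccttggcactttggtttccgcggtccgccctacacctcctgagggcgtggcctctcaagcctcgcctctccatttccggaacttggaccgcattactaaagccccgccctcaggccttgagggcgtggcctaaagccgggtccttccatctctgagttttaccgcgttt
Fanci: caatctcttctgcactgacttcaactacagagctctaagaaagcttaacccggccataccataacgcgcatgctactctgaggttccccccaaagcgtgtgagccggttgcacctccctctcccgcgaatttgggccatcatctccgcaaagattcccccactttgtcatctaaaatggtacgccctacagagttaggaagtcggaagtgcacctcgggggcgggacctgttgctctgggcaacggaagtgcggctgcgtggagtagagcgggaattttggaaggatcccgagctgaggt
Xrcc6: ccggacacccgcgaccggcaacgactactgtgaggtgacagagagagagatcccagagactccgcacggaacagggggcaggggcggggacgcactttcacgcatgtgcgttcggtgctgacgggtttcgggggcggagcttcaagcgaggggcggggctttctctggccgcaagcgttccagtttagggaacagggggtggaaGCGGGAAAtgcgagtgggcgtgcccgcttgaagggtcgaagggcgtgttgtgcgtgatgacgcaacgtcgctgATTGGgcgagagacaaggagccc
Xrcc5: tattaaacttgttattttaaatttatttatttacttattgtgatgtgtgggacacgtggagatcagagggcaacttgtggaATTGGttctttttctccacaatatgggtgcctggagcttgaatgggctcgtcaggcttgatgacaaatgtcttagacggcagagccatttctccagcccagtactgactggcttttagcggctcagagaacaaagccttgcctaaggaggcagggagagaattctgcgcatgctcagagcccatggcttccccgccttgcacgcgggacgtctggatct

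Bard1 and Xrcc6 held E2F letters, Bard1 also CHR letters, Brca1, Xrcc6 and Xrcc5 held CCAAT, and Fanci held none of the 3. The E2F letters searched were TTTCCCGC, TTTCGCGC, TTTGCCGC and TTTGGCGC, the CHR letters were TTTGAA and TTCGAA, and no matches of different motifs overlapped in any window of the genes described. Of the 52 genes, 41 had an entry, and 4 of them had 2 windows. Counts of the genes described are per gene, with a match in any of its windows, while the shares beside them are per window. E2F letters were in the windows of 7 of 27 genes lower at 10 µM (Brca2, Bard1, Rad51c, Msh3, Msh6, Xrcc6 and Chek2) and of 1 of 14 others (Fancg), against 2.26% of all 32851 windows in the table, 4.03% of those of compared genes, and 7.44% of those of all genes lower at 10 µM. Among the 17 of them at least 2-fold lower the count was 2. CHR letters were in 2 of the 27 and 1 of the 14, against 19.2% of all windows, 13.7% for compared genes and 20% for all genes lower. CCAAT was in 16 of the 27 and 8 of the 14, against 37.4% of all windows, 38.3% for compared genes and 41.95% for all genes lower. A match is a description of letters, not of a bound site.

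Among damage signalling genes, Chek1, Mre11a and H2afx had the lowest folds. Chek1, the kinase that relays ATR signals at stalled forks, was at 9.42 and 11.2 FPKM with 0 µM, 2.11 and 2.34 FPKM with 5 µM, and 2.29 and 1.80 FPKM with 10 µM, with a log2 fold of −1.89 (−2.12 to −1.66) at 10 over 0 µM. Both treated libraries lay below the untreated lanes with no overlap, and 5 and 10 µM overlapped. Chek2, the kinase downstream of ATM, was at 15.8 and 16.3 FPKM with 0 µM, 10.96 and 10.1 FPKM with 5 µM, and 9.51 and 7.46 FPKM with 10 µM. Its log2 fold was −0.85 (−1.04 to −0.67) at 10 µM and called lower, and −0.57 at 5 µM, not called. The ratio of Chek1 to Chek2 within a file was 0.598 and 0.686 with 0 µM, 0.192 and 0.232 with 5 µM, and 0.240 and 0.242 with 10 µM.

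Of the 3 genes of the MRN complex, which binds broken ends and activates ATM, 1 was called. Mre11a, the nuclease subunit, was at 18.7 and 19.4 FPKM with 0 µM, 6.09 and 7.26 FPKM with 5 µM, and 6.29 and 5.96 FPKM with 10 µM and fell, with a log2 fold of −1.49 (−1.55 to −1.44). Rad50, the tethering subunit, had a log2 fold of −0.47 and Nbn, the subunit that recruits ATM, one of −0.35, and neither was called at either dose. The ratio of Mre11a to Nbn was 1.12 and 1.17 with 0 µM, 0.546 and 0.634 with 5 µM, and 0.478 and 0.474 with 10 µM, and the treated lanes did not overlap the untreated ones.

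H2afx, the histone variant H2AX that ATM phosphorylates around breaks, was at 37.1 and 36.7 FPKM with 0 µM, 19.7 and 18.2 FPKM with 5 µM, and 13.6 and 14.8 FPKM with 10 µM. It was lower at both doses, with log2 folds of −0.93 at 5 µM and −1.32 (−1.39 to −1.26) at 10 µM, and its 10 µM lanes lay below its 5 µM lanes. Atm was at 7.31 and 6.78 FPKM with 0 µM, 3.90 and 3.62 FPKM with 5 µM, and 3.77 and 4.45 FPKM with 10 µM and was called lower at both doses, at −0.76 and −0.66. Its 10 µM call rests on the lane 6 file, without which the log2 fold was −0.56 and not called, and with equal sums it was −0.47. Atr (−0.33) and Trp53bp1 (−0.36), whose product 53BP1 shields broken ends from resection, were not called. Trp53 encodes p53, which these kinases stabilise, and averaged 21.9, 20.8 and 18.8 FPKM with 0, 5 and 10 µM, not called. Of its known targets, Cdkn1a, a CDK inhibitor, was at 10.6 and 11.3 FPKM with 0 µM, 19.5 and 18.7 FPKM with 5 µM, and 21.4 and 21.9 FPKM with 10 µM and higher (0.93), and Mdm2, the ubiquitin ligase of p53, was not called (0.01).

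Among homologous recombination genes, Exo1, Brca1 and Bard1 had the lowest folds. Their order depends on the scale. The ratio of mean FPKM at 10 over 0 µM was 0.0899 for Bard1, 0.112 for Brca1 and 0.117 for Exo1. Exo1 encodes a nuclease that resects broken ends and also acts in mismatch repair, and was at 31.5 and 32.1 FPKM with 0 µM, 5.07 and 6.37 FPKM with 5 µM, and 4.36 and 3.05 FPKM with 10 µM, a log2 fold of −2.82 (−3.03 to −2.60) at 10 over 0 µM. By mean FPKM it ranked 37 of 52 with 10 µM, against 7 with 0 µM. Brca1 was at 13.4 and 13.6 FPKM with 0 µM, 2.21 and 2.65 FPKM with 5 µM, and 1.54 and 1.48 FPKM with 10 µM (log2 fold −2.53, range −2.56 to −2.51). Its partner Bard1, with which it forms a ubiquitin ligase, was at 6.62 and 6.60 FPKM with 0 µM, 1.19 and 1.08 FPKM with 5 µM, and 0.672 and 0.516 FPKM with 10 µM (log2 fold −2.26, range −2.33 to −2.18). The ratio of Brca1 to Bard1 was 2.03 and 2.06 with 0 µM, 1.86 and 2.45 with 5 µM, and 2.29 and 2.87 with 10 µM, with the 5 µM values overlapping those of both other doses.

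Palb2, Brca2, Blm and Rad54l were lower too. Palb2, the bridge between BRCA1 and BRCA2, had a log2 fold of −1.27 (−1.35 to −1.19), and Brca2, a mediator of strand exchange, one of −0.79 (−0.97 to −0.60). Brca2 was at 6.47 and 7.62 FPKM with 0 µM, 3.36 and 3.43 FPKM with 5 µM, and 3.93 and 3.40 FPKM with 10 µM, and its 5 and 10 µM lanes overlapped. The ratio of Brca1 to Brca2 was 2.08 and 1.78 with 0 µM, 0.657 and 0.771 with 5 µM, and 0.391 and 0.437 with 10 µM, with no overlap between any of the 3 doses. Blm, a helicase that dissolves joined molecules, was at 15.3 and 15.5 FPKM with 0 µM, 5.75 and 5.79 FPKM with 5 µM, and 5.42 and 4.46 FPKM with 10 µM (log2 fold −1.47, range −1.59 to −1.34). Rad54l encodes a motor protein of strand exchange (log2 fold −1.39, range −1.43 to −1.35).

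The genes Rad51b, Rad51c, Rad51d, Xrcc2 and Xrcc3, whose products form complexes that assist recombination, held called and uncalled members. Xrcc2 was lower, at 8.53 and 8.90 FPKM with 0 µM, 3.54 and 3.42 FPKM with 5 µM, and 3.38 and 3.07 FPKM with 10 µM (log2 fold −1.20, range −1.28 to −1.12), as was Rad51c (−0.83). Rad51b was called lower at 10 µM alone (−0.59, and −0.26 at 5 µM), and was at 3.67 and 3.73 FPKM with 0 µM, 3.27 and 2.60 FPKM with 5 µM, and 1.86 and 2.42 FPKM with 10 µM. That call sits at the 1.5-fold line and was lost under each of 3 rescalings (−0.56 to −0.43), without the lane 7 file of 0 µM (−0.58) and without the lane 6 file of 10 µM (−0.46). Rad51d, at 12.8, 13.6 and 13.1 FPKM at 0, 5 and 10 µM, and Xrcc3 (−0.45) were not called. Xrcc2 and Rad51d, whose products share a complex, stood at a ratio of 0.688 and 0.674 with 0 µM, 0.257 and 0.255 with 5 µM, and 0.265 and 0.228 with 10 µM.

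On the log2(FPKM + 1) scale, the Fanconi genes ranged from the second lowest fold of the 52 to no call. The pair at the centre of the pathway, whose ubiquitination marks crosslinked forks, had the lowest folds among them. Fancd2 was at 14.5 and 15.0 FPKM with 0 µM, 3.28 and 2.93 FPKM with 5 µM, and 1.60 and 1.21 FPKM with 10 µM (log2 fold −2.71, range −2.85 to −2.57). Fanci was at 10.8 and 11.002 FPKM with 0 µM, 2.60 and 2.18 FPKM with 5 µM, and 1.33 and 1.71 FPKM with 10 µM (log2 fold −2.24, range −2.37 to −2.12). Fancd2 was also called lower at 10 against 5 µM, with a log2 fold of −0.77 (−0.95 to −0.59) and a ratio of mean FPKM of 0.453. That ratio was 0.504 for Brip1 and 0.524 for Bard1, which were not called on the log2(FPKM + 1) scale. Brip1, the FANCJ helicase that binds BRCA1, was at 4.51 and 5.32 FPKM with 0 µM, 1.77 and 0.950 FPKM with 5 µM, and 0.744 and 0.625 FPKM with 10 µM (log2 fold −1.81, range −1.96 to −1.66).

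The core complex, the ubiquitin ligase that acts on that pair, held both called and uncalled genes. Fanca was at 33.5 and 36.4 FPKM with 0 µM, 9.02 and 10.98 FPKM with 5 µM, and 8.25 and 8.78 FPKM with 10 µM (log2 fold −1.92, range −2.01 to −1.82). Fancb was at 10.3 and 10.2 FPKM with 0 µM, 2.73 and 3.07 FPKM with 5 µM, and 2.20 and 2.16 FPKM with 10 µM (log2 fold −1.82, range −1.84 to −1.81). Fancl, the catalytic RING subunit, was lower too (log2 fold −1.10, range −1.15 to −1.05). Fancc (0.09), Fance (−0.25), Fancf (−0.16) and Fancg (−0.17) were not called at either dose. The ratio of Fanca to Fancg was 4.24 and 4.35 with 0 µM, 1.40 and 1.36 with 5 µM, and 1.19 and 1.20 with 10 µM. That of Fancb to Fancc was 1.97 and 2.04 with 0 µM, 0.552 and 0.681 with 5 µM, and 0.394 and 0.399 with 10 µM, and in both ratios the treated lanes lay below the untreated ones. Fancm, the helicase that anchors the complex to DNA, was at 5.03 and 5.97 FPKM with 0 µM, 3.07 and 2.99 FPKM with 5 µM, and 4.67 and 3.10 FPKM with 10 µM. It was called lower at 5 µM (−0.69) and not at 10 µM (−0.43), where its lanes differed most among the 52 genes, and without the lane 6 file of 10 µM it was called there too, at −0.66.

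All 3 mismatch repair genes were lower at 10 than at 0 µM. Msh6, whose product recognises single mismatches, was at 46.8 and 47.1 FPKM with 0 µM, 19.2 and 19.8 FPKM with 5 µM, and 18.5 and 19.5 FPKM with 10 µM (log2 fold −1.26, range −1.30 to −1.22), and all 4 treated lanes lay close together. Pms2, a subunit of the nicking complex, was at 13.0 and 13.7 FPKM with 0 µM, 8.18 and 4.94 FPKM with 5 µM, and 6.49 and 4.69 FPKM with 10 µM (log2 fold −1.14, range −1.37 to −0.91). On the log2(FPKM + 1) scale its 5 µM lanes differed by 0.63, more than those of any other of the 52 genes at any dose. Msh3, whose product recognises larger loops, was at 9.50 and 10.1 FPKM with 0 µM, 6.60 and 6.79 FPKM with 5 µM, and 5.16 and 6.89 FPKM with 10 µM and was called lower at 10 µM (−0.63) but not at 5 µM (−0.49). Without the lane 6 file of 10 µM its log2 fold was −0.46 and not called, and with equal sums it was −0.44. The ratio of Msh6 to Msh3 was 4.92 and 4.64 with 0 µM, 2.91 and 2.92 with 5 µM, and 3.58 and 2.83 with 10 µM.

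In excision repair, the 6 genes of base and single-strand break repair were lower at 10 than at 0 µM, and none of the 6 of nucleotide excision repair was. Ung, the glycosylase that removes uracil, had the lowest fold, at 16.0 and 16.3 FPKM with 0 µM, 3.43 and 3.78 FPKM with 5 µM, and 3.43 and 3.39 FPKM with 10 µM (log2 fold −1.96, range −1.98 to −1.94). Parp1 and Parp2, which sense strand breaks, were also lower. Parp1 was at 62.5 and 62.3 FPKM with 0 µM, 32.4 and 32.5 FPKM with 5 µM, and 29.6 and 29.9 FPKM with 10 µM (log2 fold −1.05, range −1.06 to −1.03), and all 4 of its treated lanes lay between 29.6 and 32.5 FPKM. Parp2 was at 24.9 and 22.5 FPKM with 0 µM, 12.4 and 9.53 FPKM with 5 µM, and 9.71 and 9.90 FPKM with 10 µM (log2 fold −1.19, range −1.28 to −1.11). Xrcc1, the scaffold of single-strand break repair, was at 27.3 and 26.7 FPKM with 0 µM, 16.4 and 16.4 FPKM with 5 µM, and 15.0 and 13.8 FPKM with 10 µM (log2 fold −0.86, range −0.94 to −0.79).

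Ogg1, the glycosylase for oxidised guanine, and Lig3, the ligase bound to XRCC1, were close to the 1.5-fold line. Ogg1 was at 17.7 and 18.9 FPKM with 0 µM, 13.0 and 12.3 FPKM with 5 µM, and 11.3 and 11.2 FPKM with 10 µM, called lower at 10 µM (−0.65) and not at 5 µM (−0.50). Lig3 was at 19.5 and 18.5 FPKM with 0 µM, 12.7 and 12.1 FPKM with 5 µM, and 11.8 and 12.5 FPKM with 10 µM, with log2 folds of −0.58 at 5 µM, not called, and −0.61 at 10 µM, called. All treated lanes of both genes lay below their untreated lanes. Lig3 was no longer called under the 3 rescalings (−0.57 to −0.40), nor when the lane 6 file of either dose was left out (−0.57 each), and Ogg1 was not called with equal sums (−0.45).

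Xpc was the only one of the 52 genes called higher. It encodes the sensor that starts global nucleotide excision repair, and was at 8.11 and 8.27 FPKM with 0 µM, 14.9 and 13.8 FPKM with 5 µM, and 13.5 and 12.6 FPKM with 10 µM, with log2 folds of 0.74 (0.68 to 0.80) at 5 µM and 0.61 (0.55 to 0.67) at 10 µM. Ddb2, the other damage sensor of that route, was at 5.02 and 5.63 FPKM with 0 µM, 8.51 and 7.98 FPKM with 5 µM, and 8.11 and 8.58 FPKM with 10 µM. Its log2 folds were 0.55 and 0.56 (0.46 to 0.67), just inside the 1.5-fold line and not called. No treated lane overlapped an untreated one. In plain FPKM, Ddb2 lay beyond the line, with ratios of mean FPKM of 1.55 at 5 over 0 µM and 1.57 at 10 over 0 µM. Without the lane 6 file of 10 µM Xpc was no longer called, at 0.56, and Ddb2 was, at 0.60. Ddb2 was also called without the lane 7 file of 0 µM, at 0.64, and under the 3 rescalings, at 0.60 to 0.75. The same held with a pseudocount of 0.1 FPKM, at 0.64, and with lane 6 alone, at 0.60. Xpa, the damage verifier (0.01), Ercc3 (−0.00028) and Ercc2 (−0.34), the helicases of TFIIH, and Ercc1, a subunit of the incision nuclease (−0.25), were not called at either dose. Ercc3 was at 24.0 and 22.5 FPKM with 0 µM, 23.2 and 23.3 FPKM with 5 µM, and 24.1 and 22.3 FPKM with 10 µM, and these ranges overlapped.

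End joining had 1 called gene, and it was one part of a pair. Xrcc6 encodes Ku70 and Xrcc5 Ku80, which bind broken ends together as a dimer. Xrcc6 was at 54.7 and 55.8 FPKM with 0 µM, 30.6 and 29.2 FPKM with 5 µM, and 28.5 and 29.2 FPKM with 10 µM (log2 fold −0.92, range −0.95 to −0.88), lower at both doses. Xrcc5 was at 11.7 and 12.2 FPKM with 0 µM, 15.1 and 14.9 FPKM with 5 µM, and 16.6 and 15.4 FPKM with 10 µM (log2 fold 0.39, range 0.32 to 0.46), not called, with every treated lane above both untreated lanes. With equal sums Xrcc5 was called higher, at 0.59. The ratio of Xrcc6 to Xrcc5, which no scaling of a file can move, was 4.66 and 4.58 with 0 µM, 2.03 and 1.96 with 5 µM, and 1.72 and 1.89 with 10 µM.

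The other end joining genes stayed within 1.5-fold. Prkdc, the catalytic subunit of DNA-PK, was at 4.03 and 3.93 FPKM with 0 µM, 3.14 and 3.07 FPKM with 5 µM, and 3.37 and 3.49 FPKM with 10 µM (−0.17). Lig4, the ligase that seals the ends, was at 4.32 and 4.17 FPKM with 0 µM, 4.39 and 4.21 FPKM with 5 µM, and 4.37 and 4.92 FPKM with 10 µM (0.10). Its partner Xrcc4 was at 10.6 and 11.1 FPKM with 0 µM, 10.5 and 12.1 FPKM with 5 µM, and 11.5 and 12.9 FPKM with 10 µM (0.16). The ratio of Lig4 to Xrcc4 was 0.408 and 0.376 with 0 µM, 0.419 and 0.349 with 5 µM, and 0.381 and 0.380 with 10 µM, and the 3 doses overlapped.

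**Figure D3:**
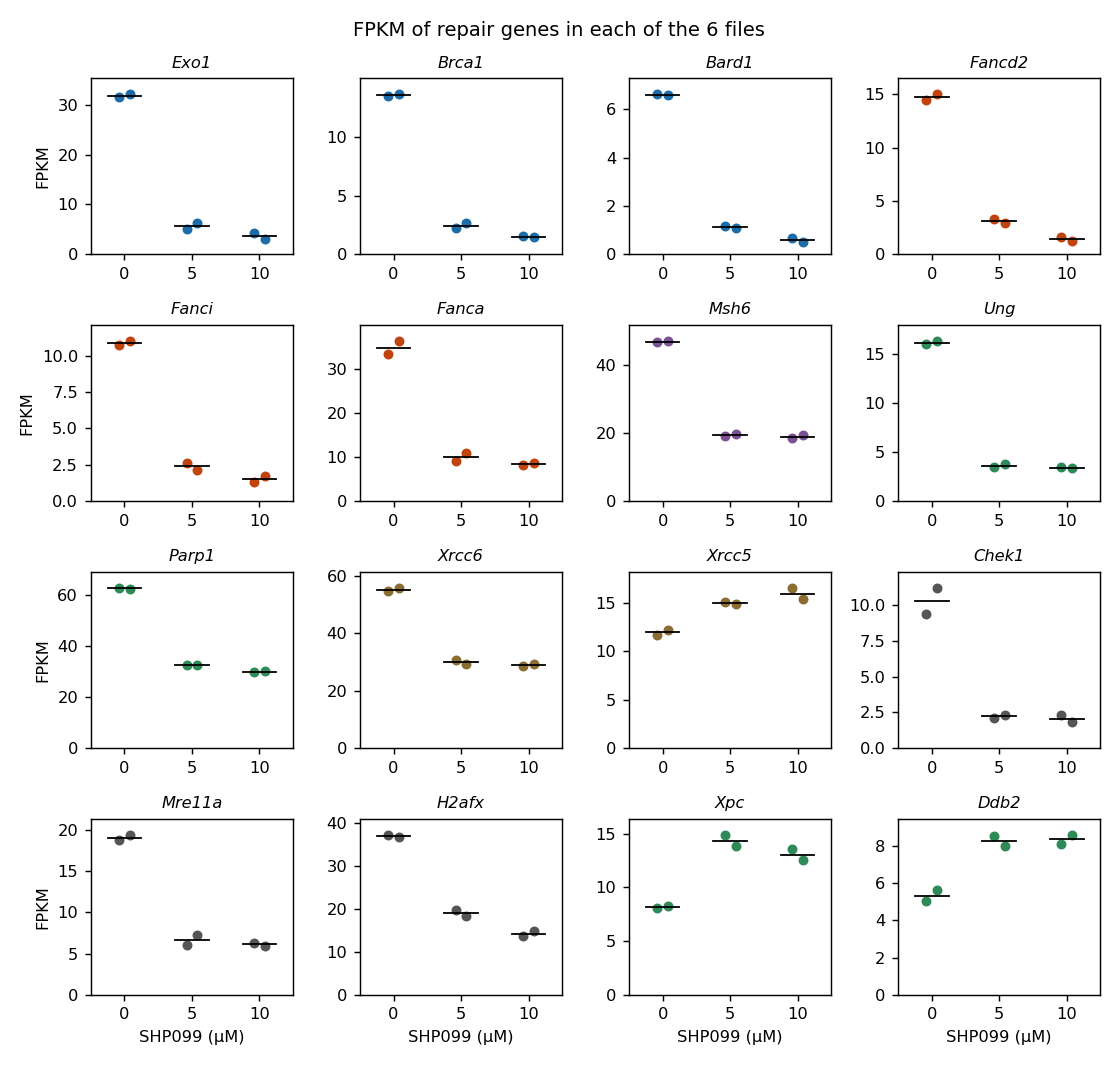
FPKM (y axis, from 0) of 16 genes at 0, 5 and 10 µM SHP099 (x axis), with a point for each lane file and a line for the mean of a dose, coloured by role as in the plot of folds. Most genes are at their highest at 0 µM, with 5 and 10 µM closer to each other than to 0 µM, while Xrcc5, Xpc and Ddb2 have their lowest values at 0 µM. For Exo1, Brca1, Bard1, Fancd2 and Fanci, the ratio of mean FPKM at 10 over 5 µM was between 0.453 and 0.647.

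**Figure D4:**
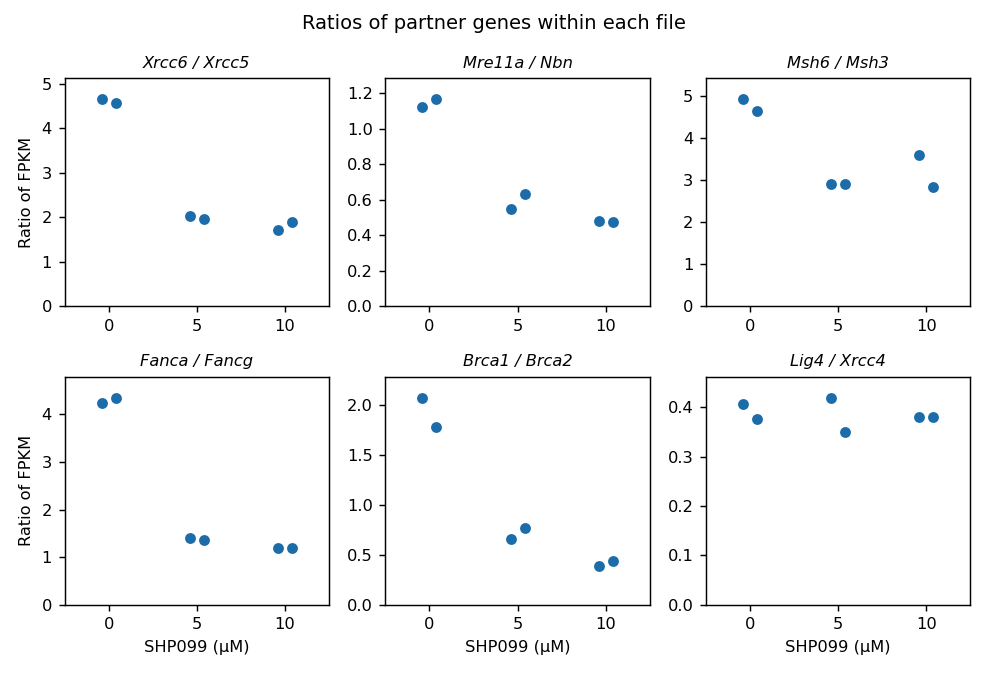
Ratio of FPKM (y axis, from 0) of 6 gene pairs within each lane file at 0, 5 and 10 µM SHP099 (x axis). The Xrcc6 to Xrcc5 ratio is 4.66 and 4.58 with 0 µM, 2.03 and 1.96 with 5 µM, and 1.72 and 1.89 with 10 µM, while Lig4 to Xrcc4 stays between 0.349 and 0.419.

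The order of the 52 genes by mean FPKM differed between doses. With 10 µM the highest were Parp1, Xrcc6, Fance, Ercc3 and Msh6, and with 0 µM Parp1, Xrcc6, Msh6, H2afx and Fanca. Xrcc5 ranked 6 of 52 with 10 µM, against 26 with 0 µM. The levels lay between 0.594 and 29.7 FPKM with 10 µM, and between 3.70 and 62.4 FPKM with 0 µM. The log2 fold at 10 over 0 µM was weakly related to the level at 0 µM across the 52 genes, with a Pearson r of −0.28 and a Spearman rho of −0.32. These genes come from the same libraries, and both axes share the 0 µM values.

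Other genes of the same routes were also lower in many cases. Of 103 other repair genes listed by role, 102 reached the level compared, and Neil2 did not. At 10 against 0 µM 45 were lower and 2 higher, where 19.1% of all compared genes were lower and 15.7% higher. The median of their log2 folds was −0.48, against −0.03 for all genes. At 5 against 0 µM 47 were lower and 1 higher, where 16.8% of all genes were lower and 14.1% higher. Among the lowest were Rad51ap1, a recombination cofactor (47.1, 8.12 and 4.80 FPKM with 0, 5 and 10 µM, log2 fold −3.06 at 10 over 0 µM), the glycosylase Neil3 (−2.88), the fork proteins Clspn (−2.65) and Timeless (−2.57), and Rad54b, a motor protein of recombination (−2.30). The 2 higher genes were Polm, a polymerase of end joining, averaging 12.01, 20.1 and 22.3 FPKM with 0, 5 and 10 µM (log2 fold 0.84, range 0.76 to 0.92), and Mgmt, which removes alkyl groups from guanine, averaging 4.08, 6.24 and 7.08 FPKM (log2 fold 0.67, range 0.59 to 0.75).

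Some of these values may include reads of a neighbour. Exons of 28 of the 52 genes overlap exons of another gene in GENCODE vM21, in 21 cases of a protein-coding one, and it is not stated whether reads were counted by strand. Fanca overlaps Zfp276, which was at 14.3 FPKM at 10 µM and 44.6 FPKM at 0 µM. Ddb2 overlaps Acp2, at 37.8 FPKM at 10 µM and 19.5 FPKM at 0 µM, and Xrcc6 overlaps Desi1, at 21.7 FPKM with 10 µM and 30.3 FPKM with 0 µM. Fanci overlaps Polg, at 23.4 FPKM with 10 µM and 37.2 FPKM with 0 µM. Lig3 overlaps Rffl over 1826 bases, with Rffl at 4.48 FPKM with 10 µM and 6.58 FPKM with 0 µM. The part of these neighbours in the values was not tested. Brca1, Bard1, Exo1, Chek1, Ung and Xpc have no such overlap.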

How the data were processed

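The 6 deposited files each hold 1 value per gene for 1 lane of polyadenylated RNA. The values are FPKM computed by the authors, per the file headers. Bowtie 0.12.2 and build mm8 stand in the submitters' processing notes. How reads became FPKM, with which annotation, strand setting and scaling, is not given in the sources used here. Of 53460 gene IDs, 53270 are in GENCODE vM21, an annotation later than mm8, which gave the lengths and overlaps. The titles of a dose carry 1 library name and differ in lane, so its files count as repeat runs of 1 library. The column names end in R1 and R2, which the labels do not explain.

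FPKM were used as deposited, and entries of a symbol were summed (none of the 52 genes had more than 1). Means over lanes were taken on log2(FPKM + 1), and FPKM means are arithmetic. Genes were compared if their mean reached 1 FPKM with any dose. Mapped fragments were fitted so that genes with 1 transcript of 1500 to 6000 bases and under 10 fragments came out whole, after taking 240 bases off each length. Between 97.6% and 98.4% were whole within 0.1. These errors cover counting only. The rule for calling a gene (size and lane pairs) was tested on simulated data. The simulated noise was the spread between lanes of the 0 µM library. It held no variation between cultures, so it cannot show how far calls would repeat in other cultures.

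The 52 genes and all lists were chosen with earlier results of these data known. Lane values are given for the 4 genes of each role with the largest absolute folds, for genes called higher and for genes whose call differed between doses, and partner ratios and other genes were chosen after their values were seen. The other repair genes named are from the 6 lowest and the highest called, and some results are not reported here. Promoters come from RefSeq, matched by symbol or gene ID. Python 3.11.15, numpy 2.4.6, pandas 2.3.3 and matplotlib 3.10.9 were used. The alternatives were 2 other pseudocounts, no filter or 5 FPKM, 3 rescalings, a 2-fold rule, lane files left out or used alone, and the highest entry of a symbol.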

Additional observations from a re-analysis of the deposited data

How the results depend on the processing

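The counts of lower genes moved by at most 1.5 times under every alternative run, between 21 and 31 for 10 against 0 µM and between 18 and 29 for 5 against 0 µM, and no call of the 52 genes at 10 against 0 µM reversed. For 38 of the 52 the call at 10 against 0 µM was the same in every setting in which the gene was compared. With the 5 FPKM filter, 47 of the 52 were compared.

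Counts of higher genes are small and moved more. At 10 against 0 µM, where 1 gene was higher, the count was 0 with a 2-fold rule, a pseudocount of 5 FPKM or lane 7 alone, 2 with a pseudocount of 0.1 FPKM, trimmed mean or median scaling or lane 6 alone, and 3 with equal sums. Leaving out a lane file gave 1 to 2. The share of all compared genes that were higher was 5.83%, 8.19% and 16.2% in the settings with 0, in that order. It was 16.4% to 19.0% in the settings with 2, 23.4% with equal sums and 15.7% to 16.2% without a lane file. At 5 against 0 µM the count was 0 with a 2-fold rule or a pseudocount of 5 FPKM, 2 with a pseudocount of 0.1 FPKM, equal sums or lane 6 alone, and 1 to 2 without a lane file. There the share of all compared genes was 5.19% with a 2-fold rule and 7.38% with a pseudocount of 5 FPKM. It was 17.8%, 20.4% and 14.9% in the settings with 2, and 14.0% to 14.7% without a lane file. The count of lower genes at 10 against 5 µM, 1 as given, was 0 with a 2-fold rule or a pseudocount of 5 FPKM, 6 with 0.1 FPKM, 3 with lane 6 alone, 2 with lane 7 alone and 1 to 2 without a lane file. The share of all compared genes in these settings was 0.223%, 0.302%, 2.46%, 2.15%, 2.06% and 1.35% to 1.91%, in the same order.

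The median log2 fold at 10 against 0 µM was −0.84 and −0.50 with pseudocounts of 0.1 and 5 FPKM, −0.83 with a 5 FPKM filter, −0.54 with equal sums, −0.81 with lane 7 alone and −0.76 to −0.69 without a lane file. At 5 against 0 µM it was −0.77 and −0.46 with those pseudocounts, −0.76 with the filter, −0.52 with equal sums, −0.60 with lane 6 alone and −0.69 to −0.66 without a lane file. At 10 against 5 µM it was −0.041 with a pseudocount of 5 FPKM, −0.046 with equal sums, −0.10 with lane 7 alone and −0.08 to −0.06 without a lane file. A larger pseudocount shrinks folds of low genes by construction; for the other settings the cause was not tested.

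No paired analysis was possible because each dose has 1 library and no test was made. Leaving out a lane file removes reads, not a culture. Counting error limits the lowest values most: Bard1 and Brip1 averaged under 1 FPKM with 10 µM, the dose with the fewest mapped fragments.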
